A study of Mus musculus with 3 samples.

Results

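Interferon response genes were read in 3 cultures of naive CD4+ T cells, helper lymphocytes that have not yet met antigen, with 1 array for each culture. The list had 57 genes, grouped by role: the receptor chains for type I interferon, nucleic acid sensors, interferon regulatory factors and interferon-induced genes. A gene was represented by its brightest probe set among those annotated with exactly 1 gene symbol. Such a probe set was present for 50 of the 57 members, out of 19935 genes in all. Differences were compared for genes whose highest intensity over the 3 arrays reached 187, the median of all values, which 42 members and 11003 genes in all did. The cells came from wild-type C57BL/6 mice 8 weeks old. A culture received IL-21, another IL-6 together with TGFb1, and the control medium and vehicle. The labels give neither cytokine doses, nor the time in culture, nor how many mice were pooled, nor whether the T cell receptor was stimulated.

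Type I interferons bind a receptor of the chains IFNAR1 and IFNAR2 and act on target genes through the interferon-stimulated response element in their promoters. The induced proteins sense viral nucleic acids, degrade RNA, block viral entry, attack vacuoles that hold pathogens and supply peptides for antigen presentation, and T cells hold many of them at a basal level. IL-21 and IL-6 are known to signal mainly through STAT3, and TGFb1 through SMAD proteins.

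Each value is a probe set intensity on a linear scale, and each difference is log2(intensity + 1) on one array minus the same on the other. With 1 array per culture there was no spread between cultures and no test, so the differences describe these arrays. The number of arrays limits the precision. As a scale for measurement error within the arrays, the 474 genes with 2 bright probe sets had a median gap between them of 0.07 for IL-21 minus medium, and a 95th percentile of 0.41 (0.37 for IL-6 and TGFb1 minus medium, 0.35 between the treated cultures). The defining T cell markers were bright on all arrays: 7 of 8 were measured, between 1710 and 6858, and summed to 36399 in IL-21, 36348 in IL-6 and TGFb1 and 33278 in medium. The 7 macrophage and dendritic cell markers lay between 62.4 and 140, all below the brightness filter, and summed to 656 in IL-21, 647 in IL-6 and TGFb1 and 664 in medium. The 4 measured B cell markers summed to 751 in IL-21, 745 in IL-6 and TGFb1 and 731 in medium, and only Cd79b among them reached the brightness filter. The 2 measured natural killer cell markers lay between 43.9 and 76.3, below the filter. Both CD8 T cell markers were measured. Cd8b1 was at 731 in IL-21, 616 in IL-6 and TGFb1 and 810 in medium, and Cd8a, below the brightness filter, at 145 in IL-21, 155 in IL-6 and TGFb1 and 163 in medium. The part of these markers in the results below was not tested. In bulk RNA, fewer cells of a type and less RNA per cell cannot be told apart.

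Of the 42 compared members, 38 lay within 0.5 log2 units of medium in the IL-21 culture (90.5%) and 35 in the IL-6 and TGFb1 culture (83.3%). Among all compared genes 96.2% did so in the IL-21 culture and 95.1% in the IL-6 and TGFb1 culture. Ifi203, an interferon-inducible gene of the p200 family of nuclear proteins, was 2.68-fold lower with IL-21 and 6.43-fold lower with IL-6 and TGFb1. Isg20, an RNA exonuclease gene, was 2.08-fold lower with IL-6 and TGFb1 and 1.14-fold lower with IL-21. Ifih1, the gene of the long double-stranded RNA sensor MDA5, was 1.59-fold lower with IL-6 and TGFb1 and 1.05-fold higher with IL-21, a difference whose sign turned after quantile normalization. In the other direction stood Ifitm3, a membrane protein gene that restricts viral entry, 2.06-fold higher in IL-21 and 1.87-fold higher in IL-6 and TGFb1. Ddx58, the gene of the RNA sensor RIG-I, was 1.58-fold higher in IL-21 and 1.46-fold higher in IL-6 and TGFb1.

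**Figure D1:**
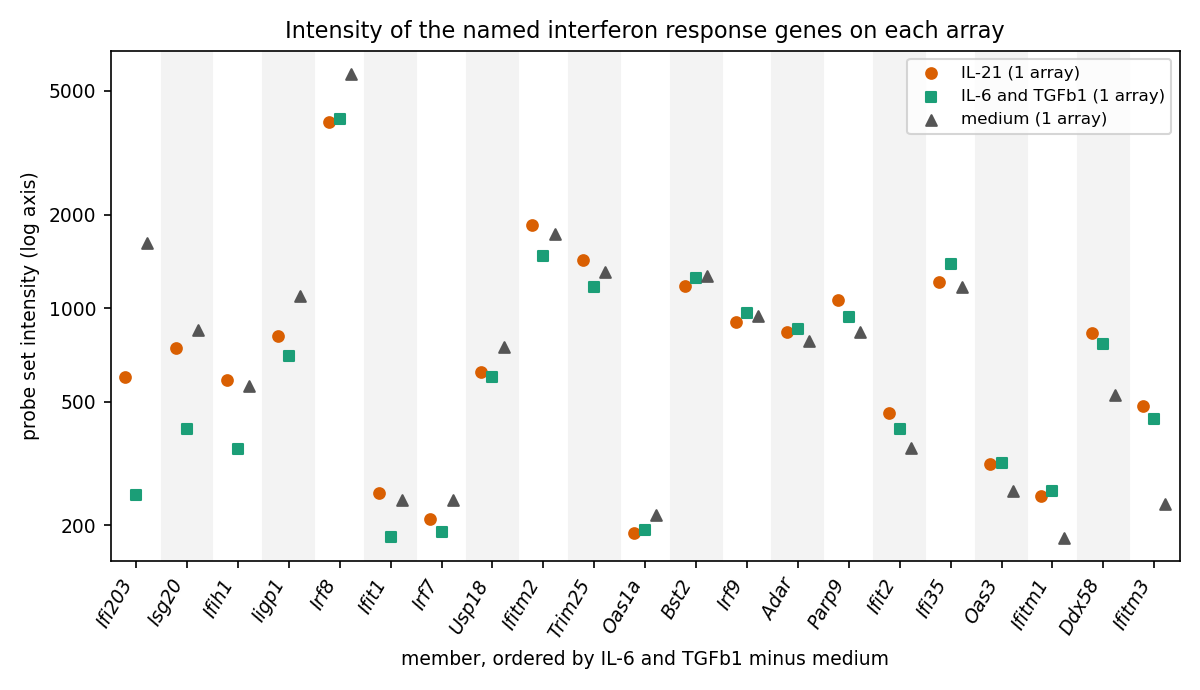
Probe set intensity (log axis) of the 21 members that were among the 6 highest or 6 lowest differences of a comparison, with 1 point for each array (circles IL-21, squares IL-6 and TGFb1, triangles medium). Ifi203 has the widest spread of the genes drawn, at 602 in IL-21 and 251 in IL-6 and TGFb1, against 1619 in medium, and for Ifitm3 and Ddx58 both treated arrays lie above medium. Levels can be read between arrays for a gene, not between genes.

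With IL-21 2 members, Ifitm3 and Ddx58, were at least 1.5-fold higher than with medium, where 2.04% of all compared genes were, and 1, Ifi203, was at least 1.5-fold lower, against 0.500%. Ddx58 fell short of 1.5-fold after quantile normalization (0.55 on the log2 scale). At 2-fold the counts were 1 higher (0.482% of all compared genes) and 1 lower (0.109%). With IL-6 and TGFb1 1 member, Ifitm3, was at least 1.5-fold higher (background 2.61%) and 4 were at least 1.5-fold lower (background 1.0%), namely Ifi203, Isg20, Ifih1 and the GTPase gene Iigp1. Of these, 2 were at least 2-fold lower, Ifi203 and Isg20, where 0.364% of all compared genes were, and no member was 2-fold higher (background 0.673%). The comparisons with medium share the medium array, so their values are given side by side and are not independent. The difference between the treated cultures is that of IL-21 less that of IL-6 and TGFb1, each from medium. It follows from them and is no independent result. Between the treated cultures 3 members were at least 1.5-fold higher with IL-21 than in the IL-6 and TGFb1 culture (background 0.927%), namely Ifi203, Isg20 and Ifih1, and none was 1.5-fold lower (background 0.527%). Ifi203 alone of them was at least 2-fold higher (background 0.273%), and no member was 2-fold lower (background 0.191%).

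The median difference of the 42 compared members was 0.00 with IL-21, where that of all compared genes was 0.04. With IL-6 and TGFb1 the members had a median of -0.08 against 0.02 for all compared genes, and between the treated cultures it was 0.10 against 0.00. In the IL-21 culture 30 of 42 members (71.4%) differed from medium by less than 0.2 log2 units, as did 73.1% of all compared genes. With IL-6 and TGFb1 23 members did (54.8%), against 72.2% of all compared genes. After quantile normalization the members' median minus that of all compared genes came to -0.05 for IL-21 minus medium (-0.04 as deposited) and to -0.09 for IL-6 and TGFb1 minus medium (-0.11 as deposited). Between the treated cultures it was 0.10 under either scaling. Centring the arrays on their medians adds a constant to every difference and leaves this distance as it is. With IL-21 20 members were above medium and 19 below, where 59.8% and 28.6% of all compared genes were. These counts follow the scaling of all genes: they were 30 and 12 after centring (82.2% and 17.8% of all compared genes) and 14 and 28 after quantile normalization (45.4% and 54.4%). With IL-6 and TGFb1 12 members were above medium and 29 below (background 56.3% and 36.6%). They were 17 and 25 after centring (68.8% and 31.2%) and 9 and 33 after quantile normalization (48.7% and 51.2%). Between the treated cultures 30 were higher and 10 lower with IL-21 (background 44.7% and 42.3%). They were 38 and 4 after centring (70.9% and 29.1%) and 31 and 11 after quantile normalization (42.5% and 57.4%). Of the 42 members, 25 were below medium with IL-6 and TGFb1 under all 3 scalings and 9 above, while 30 were higher with IL-21 than in the IL-6 and TGFb1 culture under all 3 and 4 lower. With IL-21, 14 members were above medium and 12 below it under all 3. For the remaining 16 members with IL-21, and the remaining 8 in each of the other comparisons, the sign turned with the scaling or the deposited values were tied. These counts under all 3 scalings were not made over all compared genes, so there is no background share to read them against.

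**Figure D2:**
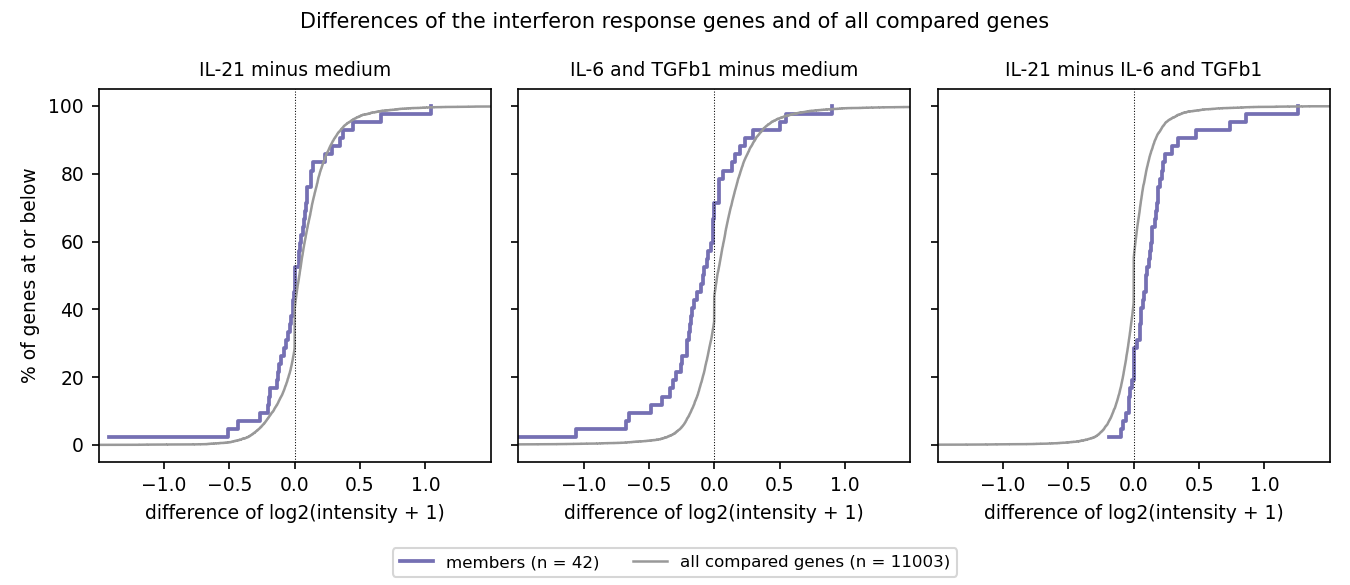
Cumulative share of genes (vertical axis, %) at or below a given difference of log2(intensity + 1) (horizontal axis, drawn from -1.5 to 1.5), for the 42 compared members and all 11003 compared genes in the 3 comparisons. The members' curve lies near that of all genes in the middle with IL-21, and is displaced to the left with IL-6 and TGFb1 (median -0.08) and to the right between the treated cultures (median 0.10).

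The promoters of some members named above are shown here, since a response element for interferon is a known feature of many such genes. Ifit1 and Irgm1 are added as targets whose windows hold a doubled element, and Irf8 for its TTCNNNGAA matches. Iigp1 had no match of either motif and is not shown. All windows shown hold a match, so they do not show how common the motifs are. The windows, from RefSeq on GRCm38.p6, run from 150 bases before the transcription start (200 for Irf8) to base 30 after it, and for Ifih1 only from base 21 to base 50. Capitals mark a core of the interferon-stimulated response element (ISRE), taken as GAAA, any 2 bases and GAAA, which reads TTTC, any 2 bases and TTTC where it lies on the opposite strand. Where a gene had several windows, a window with a match is shown. In the last 2 lines capitals mark TTCNNNGAA, the palindrome bound by STAT dimers. For these genes, Isg20 and Irf8, no ISRE core was found.
Ifi203 (chr1:173942463-173942642, minus strand): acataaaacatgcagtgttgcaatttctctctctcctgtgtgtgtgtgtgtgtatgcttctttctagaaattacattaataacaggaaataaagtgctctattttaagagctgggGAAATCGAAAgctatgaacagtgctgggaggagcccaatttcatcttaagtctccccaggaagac
Ifitm3 (chr7:141010715-141010894, minus strand): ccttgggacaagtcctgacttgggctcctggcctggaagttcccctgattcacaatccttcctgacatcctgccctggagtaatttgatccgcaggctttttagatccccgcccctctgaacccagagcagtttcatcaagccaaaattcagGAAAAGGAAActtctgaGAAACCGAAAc
Ddx58 (chr4:40239796-40239975, minus strand): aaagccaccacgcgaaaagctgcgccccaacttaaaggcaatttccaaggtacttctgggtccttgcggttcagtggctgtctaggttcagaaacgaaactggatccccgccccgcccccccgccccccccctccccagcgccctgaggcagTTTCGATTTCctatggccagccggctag
Ifih1 (chr2:62646206-62646235, minus strand): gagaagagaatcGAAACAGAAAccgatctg
Ifit1 (chr19:34640739-34640918, plus strand): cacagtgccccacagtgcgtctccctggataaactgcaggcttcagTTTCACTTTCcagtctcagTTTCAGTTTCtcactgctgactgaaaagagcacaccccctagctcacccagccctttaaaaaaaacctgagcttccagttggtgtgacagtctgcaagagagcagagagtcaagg
Irgm1 (chr11:48871391-48871570, minus strand): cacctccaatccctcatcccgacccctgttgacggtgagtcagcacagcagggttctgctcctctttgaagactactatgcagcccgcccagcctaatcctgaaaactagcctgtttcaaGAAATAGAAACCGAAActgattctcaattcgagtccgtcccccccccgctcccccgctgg
Isg20 (chr7:78913274-78913453, plus strand): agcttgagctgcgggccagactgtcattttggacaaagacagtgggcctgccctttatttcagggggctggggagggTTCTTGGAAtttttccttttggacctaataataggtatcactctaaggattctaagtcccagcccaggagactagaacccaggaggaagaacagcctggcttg
Irf8 (chr8:120736158-120736387, plus strand): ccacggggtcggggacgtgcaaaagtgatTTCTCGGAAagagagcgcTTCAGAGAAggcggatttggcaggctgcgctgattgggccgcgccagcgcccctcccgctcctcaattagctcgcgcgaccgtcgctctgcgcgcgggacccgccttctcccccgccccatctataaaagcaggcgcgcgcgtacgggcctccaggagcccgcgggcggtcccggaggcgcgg

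Both motifs were searched on both strands in windows from 250 bases before to 50 after the start. By symbol, 45 of the 57 members had such a window, and some had several. The ISRE core was found for 21 of the 45 (46.7%), against 3.99% of the 27025 genes with a window. TTCNNNGAA was found for 17 (37.8%), against 9.55% of those genes. Neighbouring ISRE core matches can share bases, as in Irgm1, and in Bst2 and Ifitm3 a TTCNNNGAA match overlaps one. A match is a run of letters, not a measured site. Of the compared members, the 14 with the ISRE core had median differences of 0.07 in the IL-21 culture and -0.17 in the IL-6 and TGFb1 culture, and the 21 without it had -0.01 in the IL-21 culture and -0.08 in the IL-6 and TGFb1 culture. Both groups held members on either side of medium, and in the IL-6 and TGFb1 culture they ranged from -2.68 to 0.90 with the core and from -1.05 to 0.50 without it. Ifi203, at the bottom of the list, and Ifitm3, at its top, both have the ISRE core in the window.

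**Figure D3:**
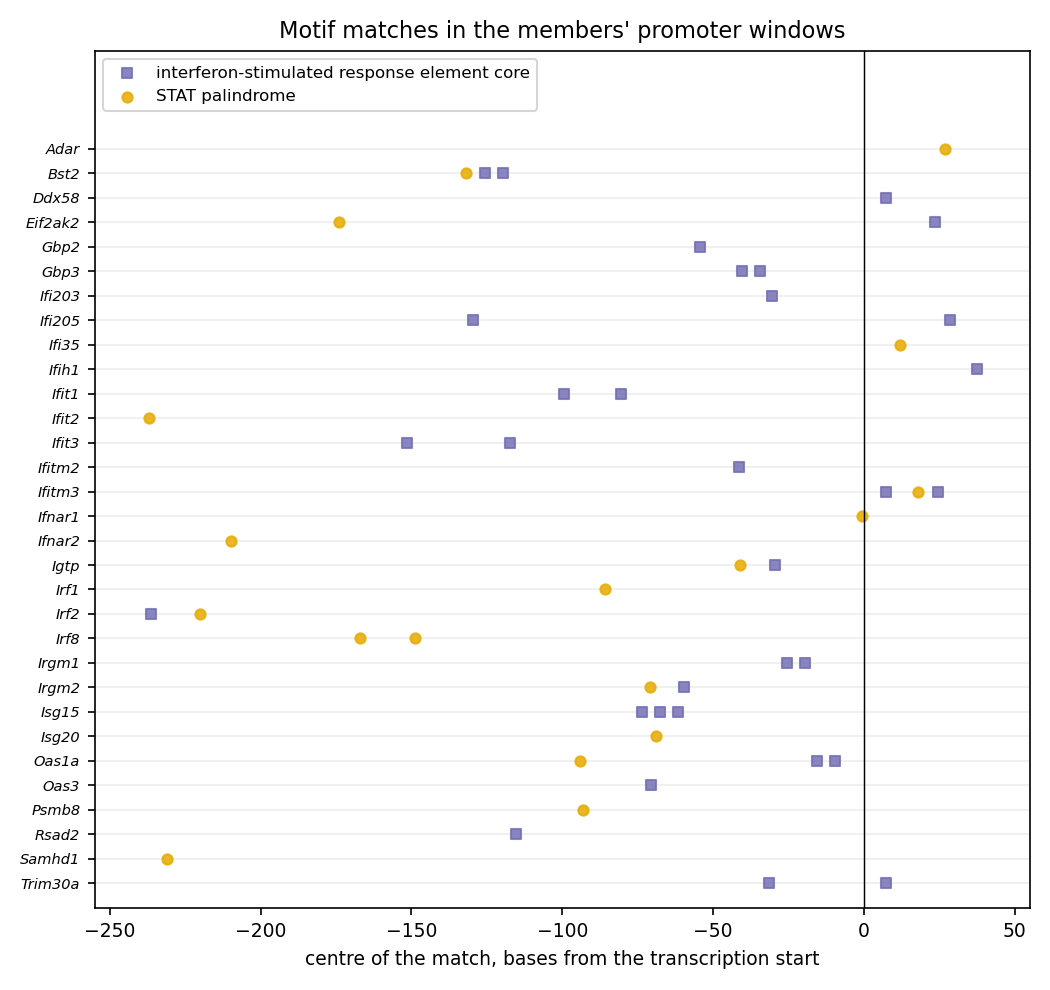
Centres of motif matches (squares ISRE core, circles TTCNNNGAA) in the promoter windows of the members that have any, in bases from the transcription start at 0. Apart from that of Irf2, which starts at -241, the ISRE core matches start between -156 and 33. The TTCNNNGAA matches start between -241 and 23. Members such as Isg15 and Bst2 hold several matches close together.

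The receptor chains for type I interferon were near medium. Ifnar1 had an intensity of 1524 in IL-21, 1322 in IL-6 and TGFb1 and 1524 in medium, exactly equal on the IL-21 and medium arrays. Such exact ties are common in the deposited values and put small differences at 0. They held for 3 compared members between IL-21 and medium (11.6% of all compared genes), for 1 between IL-6 and TGFb1 and medium (7.13%) and for 2 between the treated cultures (13.0%). Ifnar2 had 2096 in IL-21, 2097 in IL-6 and TGFb1 and 2108 in medium. The difference of Ifnar1 from medium was 0.00 in IL-21 and -0.20 in IL-6 and TGFb1, and that of Ifnar2 was -0.01 in each treated culture.

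All 4 sensor genes were compared, and the RNA helicases among them did not follow each other. Ddx58 encodes RIG-I, which recognizes short RNA with a triphosphate end, and had 833 in IL-21, 767 in IL-6 and TGFb1 and 525 in medium, with differences of 0.66 in IL-21 and 0.55 in IL-6 and TGFb1. Both treated arrays were above medium. Ifih1 had 588 in IL-21, 352 in IL-6 and TGFb1 and 561 in medium, so that the IL-6 and TGFb1 array alone was low (-0.67, and 0.07 in IL-21). The difference between the treated cultures was 0.74 for Ifih1 and 0.12 for Ddx58. Dhx58, which encodes LGP2, a helicase that modulates the other two, lay between 244 and 260 on all 3 arrays. Zbp1, a sensor of Z-form nucleic acids that triggers necroptosis, had 1117 in both treated cultures and 1126 in medium.

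Of the 5 interferon regulatory factor genes none reached 1.5-fold in any comparison. Few of all compared genes did, from 0.500% to 2.61% by comparison and direction. Irf8, a factor of myeloid and B cells that is also induced in activated T cells, was the furthest from medium, with 3977 in IL-21, 4058 in IL-6 and TGFb1 and 5668 in medium. Both treated arrays were lower and alike, with differences of -0.51 in IL-21 and -0.48 in IL-6 and TGFb1. The summed B cell markers stood at 751 in IL-21, 745 in IL-6 and TGFb1 and 731 in medium, and those of macrophages and dendritic cells at 656 in IL-21, 647 in IL-6 and TGFb1 and 664 in medium. In both lists only the B cell marker Cd79b reached the brightness filter. The part of these cells in the Irf8 values was not tested. Irf7, which amplifies the type I interferon response, had 209 in IL-21, 191 in IL-6 and TGFb1 and 241 in medium (-0.20 in IL-21, -0.34 in IL-6 and TGFb1), near the brightness filter. Irf1, a target of interferon gamma, had 2655 in IL-21, 2515 in IL-6 and TGFb1 and 2900 in medium, with differences of -0.13 in IL-21 and -0.21 in IL-6 and TGFb1, and its dimmer probe set gave 0.06 in IL-21 and 0.00 in IL-6 and TGFb1. Irf2, often an antagonist of IRF1, lay between 1020 and 1083. Irf9, the DNA-binding subunit of the type I interferon complex, had 903 in IL-21, 967 in IL-6 and TGFb1 and 944 in medium and was among the 10 members lower with IL-21 than in the IL-6 and TGFb1 culture (-0.10).

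Ifi203, of the p200 family, had the largest differences of the list. It had an intensity of 602 in IL-21, 251 in IL-6 and TGFb1 and 1619 in medium. The 3 arrays were well apart, with medium highest. The differences of -1.42 in IL-21 and -2.68 in IL-6 and TGFb1 each had rank 4 from the lowest among 11003 genes, and that between the treated cultures, 1.26, had rank 17 from the highest. Over 8 other settings the value lay between -1.52 and -1.36 for IL-21 and between -2.73 and -2.61 for IL-6 and TGFb1. The value rests on 1 probe set, and genes of this family resemble each other in sequence. Hybridization of a relative to these probes was not tested. Ifi205, of the same family, was at 52.5 in IL-21, 52.3 in IL-6 and TGFb1 and 57.1 in medium, too dim to compare. Ifi204 had no probe set with 1 symbol.

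Among genes whose products act on RNA, DNA or nucleotides, 8 of 9 were compared. Isg20 had 743 in IL-21, 409 in IL-6 and TGFb1 and 850 in medium. The IL-6 and TGFb1 array was low and the other two were close, with differences from medium of -0.19 in IL-21 and -1.05 in IL-6 and TGFb1. The difference between the treated cultures was 0.86. Its rank with IL-6 and TGFb1 was 36 from the lowest. The oligoadenylate synthetase genes, whose product activates RNase L, went both ways: Oas3 had 315 in IL-21, 318 in IL-6 and TGFb1 and 258 in medium (0.28 in IL-21, 0.30 in IL-6 and TGFb1), and Oas1a had 189 in IL-21, 194 in IL-6 and TGFb1 and 215 in medium (-0.19 in IL-21, -0.15 in IL-6 and TGFb1). Oasl1 lay between 484 and 487, and Oasl2 was at -0.05 in IL-21 and -0.19 in IL-6 and TGFb1. The remaining genes were within 0.2 log2 units of medium in both treated cultures. They are Eif2ak2, the RNA-dependent kinase PKR that stops translation (0.00 in IL-21, -0.18 in IL-6 and TGFb1), Adar, the enzyme of A-to-I RNA editing (0.10 in IL-21, 0.13 in IL-6 and TGFb1), and Samhd1, which degrades deoxynucleotides (0.14 in IL-21, 0.04 in IL-6 and TGFb1). Oas2 was dim.

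The genes of IFIT proteins, which bind foreign RNA, were not alike. Ifit2 had 459 in IL-21, 408 in IL-6 and TGFb1 and 355 in medium (0.37 in IL-21, 0.20 in IL-6 and TGFb1), with both treated arrays above medium. Ifit1 had 254 in IL-21, 183 in IL-6 and TGFb1 and 241 in medium, so that the IL-6 and TGFb1 array alone was low. Its differences from medium were 0.08 in IL-21 and -0.40 in IL-6 and TGFb1, and that between the treated cultures was 0.47. The Ifit1 value with IL-6 and TGFb1 was below the brightness filter, so these differences are those of a gene near the filter. Ifit3 was dim on all arrays, at 98.6 in IL-21, 95.8 in IL-6 and TGFb1 and 110 in medium. Usp18, which encodes the protease that removes ISG15 and dampens signalling at IFNAR2, had 623 in IL-21, 600 in IL-6 and TGFb1 and 747 in medium (-0.26 in IL-21, -0.32 in IL-6 and TGFb1). Ifi35 had 1212 in IL-21, 1382 in IL-6 and TGFb1 and 1171 in medium and was the member furthest below 0 between the treated cultures (-0.19). Ifi27l2a was within 0.13 of medium in both. Cmpk2, a mitochondrial nucleotide kinase gene next to Rsad2, had 188 in IL-21, 160 in IL-6 and TGFb1 and 172 in medium, and its difference of 0.23 between the treated cultures is that of a gene at the brightness filter.

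Among membrane restriction genes, Ifitm3 and Ifitm1 were above medium in both treated cultures and Ifitm2 in IL-21 alone, by 0.09. Ifitm3 had 486 in IL-21, 440 in IL-6 and TGFb1 and 235 in medium, with differences of 1.05 in IL-21 and 0.90 in IL-6 and TGFb1. The IL-21 difference had rank 46 from the highest. Ifitm1 had 249 in IL-21, 259 in IL-6 and TGFb1 and 182 in medium (0.45 in IL-21, 0.50 in IL-6 and TGFb1), and its second probe set, which was dim, gave 0.32 in IL-21 and 0.37 in IL-6 and TGFb1. The medium value of Ifitm1 was below the brightness filter, and the gene was compared because the treated arrays reached it. Its differences are those of a gene near the filter. Ifitm2 had 1850 in IL-21, 1466 in IL-6 and TGFb1 and 1736 in medium, highest with IL-21. Its difference was -0.24 for IL-6 and TGFb1 minus medium and 0.34 between the treated cultures. All 3 probe sets of Ifitm2 gave a positive difference between the treated cultures, from 0.27 to 0.34. These neighbouring genes are alike in sequence, and shared hybridization was not tested. Bst2, which encodes tetherin, a protein that holds budding virus at the cell surface, had 1178 in IL-21, 1246 in IL-6 and TGFb1 and 1268 in medium (-0.11 in IL-21, -0.03 in IL-6 and TGFb1).

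Of the 7 interferon-inducible GTPase genes, which act on vacuoles that hold pathogens, 3 were compared. Iigp1 had 813 in IL-21, 699 in IL-6 and TGFb1 and 1098 in medium (-0.43 in IL-21, -0.65 in IL-6 and TGFb1). Both treated arrays were below medium, and the IL-6 and TGFb1 array was lowest. Irgm1, which regulates the other members of its family, had 2586 in IL-21, 2374 in IL-6 and TGFb1 and 2838 in medium (-0.13 in IL-21, -0.26 in IL-6 and TGFb1). Gbp3 lay between 332 and 348. Igtp, Irgm2, Ifi47 and Gbp2 had no probe set with 1 symbol.

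All 6 genes of TRIM, PARP and nuclear body proteins were compared, and none reached 1.5-fold (background 0.500% to 2.61% by comparison and direction). Trim25, the ubiquitin ligase that activates RIG-I, had 1426 in IL-21, 1167 in IL-6 and TGFb1 and 1310 in medium (0.12 in IL-21, -0.17 in IL-6 and TGFb1). Parp9 and Dtx3l, whose products form a complex, were highest with IL-21: Parp9 had 1065 in IL-21, 936 in IL-6 and TGFb1 and 837 in medium (0.35 in IL-21, 0.16 in IL-6 and TGFb1), and Dtx3l had 2101 in IL-21, 1781 in IL-6 and TGFb1 and 1786 in medium (0.23 in IL-21, 0.00 in IL-6 and TGFb1). The difference between the treated cultures was 0.29 for Trim25 and 0.19 for Parp9. Trim30a was at -0.12 in IL-21 and -0.29 in IL-6 and TGFb1, Parp14 at 0.04 in each, and Sp100, a nuclear body protein gene, at 0.00 in IL-21 and -0.06 in IL-6 and TGFb1. The antigen processing genes were close to medium. Tap1, a subunit of the peptide transporter, was at -0.08 in IL-21 and -0.17 in IL-6 and TGFb1, and the immunoproteasome subunit genes Psmb8 and Psmb9 were at -0.03 and -0.04 with IL-21 and at -0.08 each with IL-6 and TGFb1. With IL-21, the signs of Psmb8 and Psmb9 turned positive when the arrays were centred on their medians.

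**Figure D4:**
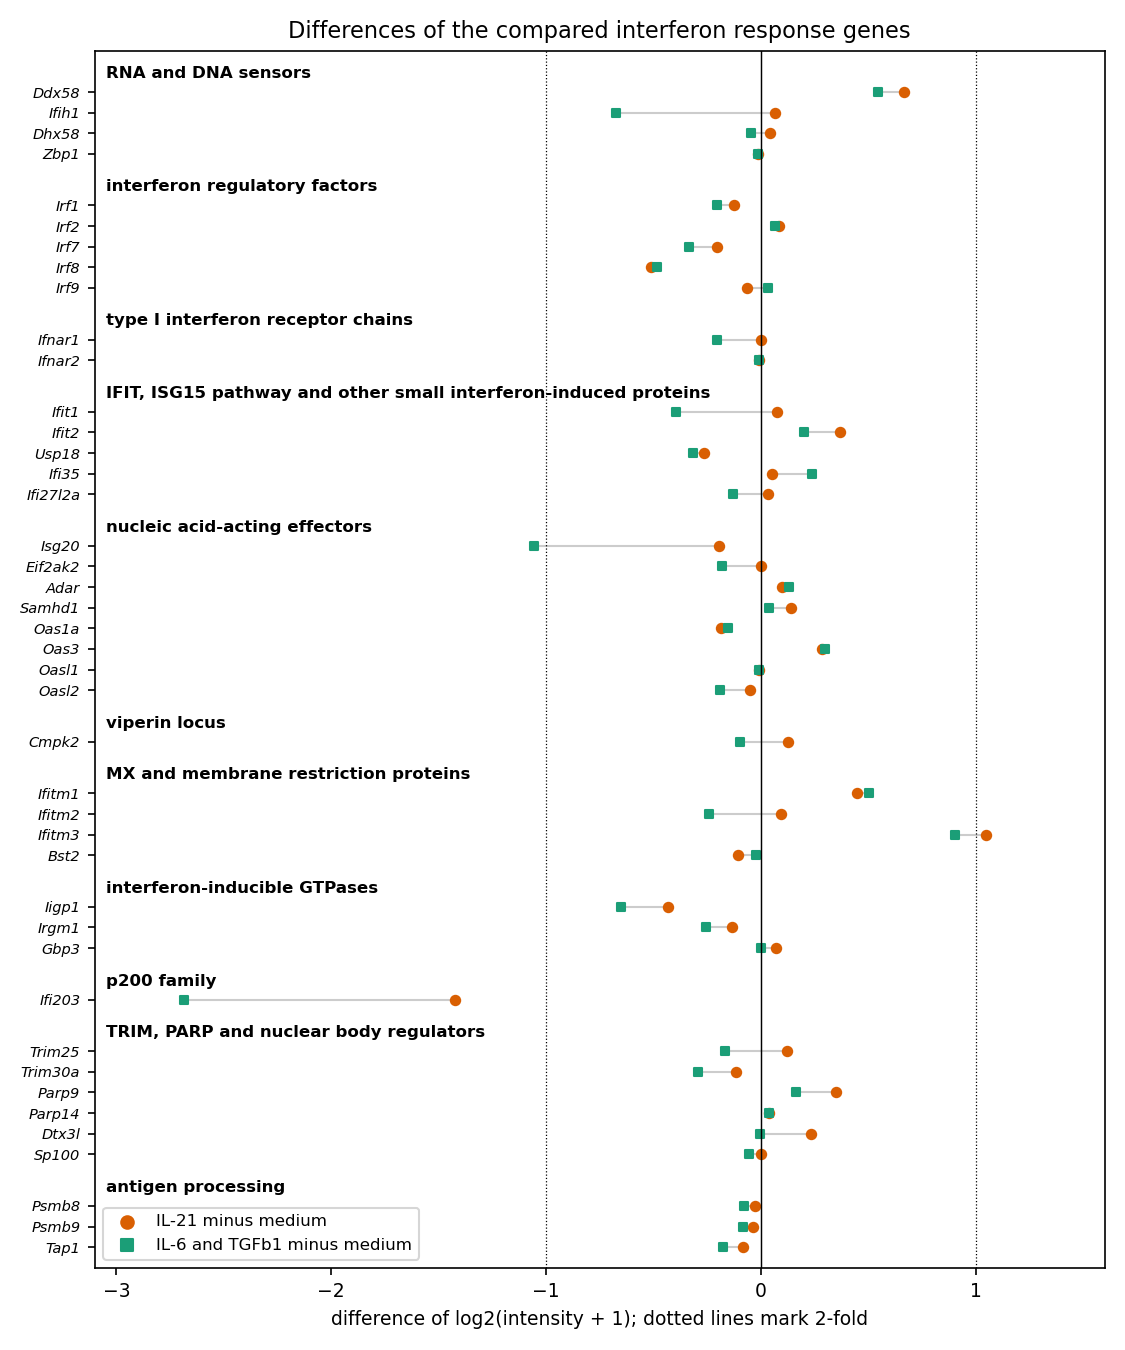
Differences of log2(intensity + 1) from medium for the 42 compared members by role, with circles for IL-21 and squares for IL-6 and TGFb1, 1 array per culture. Most points lie within the dotted 2-fold lines, and Ifi203 (-1.42 in IL-21 and -2.68 in IL-6 and TGFb1) lies far outside, while Ifih1 and Isg20 have the squares far to the left of the circles.

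The other 8 members with a probe set stayed below the brightness filter on all 3 arrays and were not compared, with intensities between 49.8 and 175. They are Ifit3, Xaf1, Rtp4, Oas2, Rsad2, Mx1, Mx2 and Ifi205, and genes such as Mx1, Rsad2 and Ifit3 are known as strongly induced by type I interferon. Mx1 had 50.5 in IL-21, 49.8 in IL-6 and TGFb1 and 50.5 in medium, and Rsad2, which encodes viperin, had 101 in IL-21, 98.0 in IL-6 and TGFb1 and 101 in medium. Values this dim do not show whether the genes differed. In all, 7 members had no probe set with exactly 1 symbol and were not analysed here, namely Isg15, Ifi44, Igtp, Irgm2, Ifi47, Gbp2 and Ifi204.

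A further list of 50 genes of the same pathways, with signalling components, nucleic acid sensors and other interferon targets, had 43 with a probe set and 37 that were compared. With IL-21 1 of the 37 was at least 1.5-fold higher (background 2.04%) and 1 lower (0.500%). With IL-6 and TGFb1 none was higher (2.61%) and 3 were lower (1.0%), and between the treated cultures 3 were higher with IL-21 (0.927%) and none lower (0.527%). The list's median was 0.03 for IL-21 minus medium (0.04 over all compared genes), 0.00 for IL-6 and TGFb1 minus medium (0.02) and 0.06 between the treated cultures (0.00). The genes past 1.5-fold were Ifng, Parp12, Gbp7 and Slfn1, of which the last 3 were chosen for mention after their values were seen. Parp12 was at 0.73 in IL-21, with its medium value below the brightness filter. Gbp7 was at -0.63 and Slfn1 at -0.74 in IL-6 and TGFb1. Between the treated cultures Gbp7 was at 0.68, Slfn1 at 1.17 and Ifng at 0.82. Ifng, which encodes interferon gamma, had 514 in IL-21, 290 in IL-6 and TGFb1 and 1153 in medium (-1.16 in IL-21, -1.99 in IL-6 and TGFb1), with medium highest. Its part in the members' values was not tested.

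None of the signalling genes given here reached 1.5-fold (background 0.500% to 2.61% by comparison and direction). Stat2 had 950 in IL-21, 1107 in IL-6 and TGFb1 and 893 in medium (0.09 in IL-21, 0.31 in IL-6 and TGFb1). The kinase genes Jak1 (0.22 in IL-21, 0.22 in IL-6 and TGFb1) and Tyk2 (0.00 in IL-21, -0.11 in IL-6 and TGFb1) and the interferon gamma receptor genes Ifngr1 (0.16 in IL-21, 0.17 in IL-6 and TGFb1) and Ifngr2 (0.01 in IL-21, 0.19 in IL-6 and TGFb1) were near medium. Irf3, the factor activated below the sensors, was at 0.08 in IL-21 and 0.10 in IL-6 and TGFb1, and Irf4, a factor of activated lymphocytes, at 0.03 in IL-21 and 0.06 in IL-6 and TGFb1. Socs1, a feedback inhibitor of interferon signalling, was at 0.15 in IL-21 and 0.17 in IL-6 and TGFb1.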

How the data were processed

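The deposited table holds probe set intensities on a linear scale for 28815 probe sets on 3 arrays, all above 0, with array medians of 182 (IL-21), 188 (IL-6 and TGFb1) and 191 (medium). Per the labels' protocols, a service company labelled the fragmented total RNA with biotin, using a whole-transcript kit from Affymetrix. The submitters' processing notes name the build mm8. The sources used here do not say how the authors summarized and normalized the deposited intensities. Many values are exactly equal between arrays. Groups came from the labels, with 1 array per group.

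The platform annotation named the probe sets, 21780 with 1 gene symbol and 1605 with several, and listed none for 5430. No further normalization was applied. A log2 difference used a pseudocount of 1, which slightly understates differences of dim genes. As no group had replicates, no test was run, and folds of 1.5 and 2 were counted. The members, lists, roles and thresholds were chosen with earlier results of these data known. The named members were the 6 highest and 6 lowest compared members of each comparison, beside values for every member by role. The alternatives were 2 other pseudocounts, raised low values, 2 brightness filters, 2 scalings and the mean of a gene's probe sets. Promoter windows came from RefSeq tables (GRCm38.p6). The calculation was tested on simulated data. Python 3.11.15, pandas 2.3.3 and NumPy 2.4.6 were used.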

Additional observations from a re-analysis of the deposited data

How the results depend on the processing

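With 1 array per culture no spread between cultures can be given, and no paired analysis was possible because each group has 1 array and replicate numbers pair nothing. The counts past 1.5-fold and 2-fold and the medians were recomputed under 8 other settings. Of 96 counts 6 differed from those reported, 5 of them under a stricter brightness filter. With only genes whose highest intensity reached the 75th percentile of all values, 28 members were compared, and Ifitm3 and Ifih1 were not among them. The count at least 2-fold higher with IL-21 was then 0, that at least 1.5-fold higher with IL-21 was 1, and that at least 1.5-fold higher with IL-6 and TGFb1 was 0. The count at least 1.5-fold lower with IL-6 and TGFb1 was 3 in place of 4, and that at least 1.5-fold higher between the treated cultures was 2 in place of 3. After quantile normalization the count at least 1.5-fold higher with IL-21 was 1, since Ddx58 was at 0.55. The medians moved by less than the median gap between probe sets of a gene, which is a wide measure for a median of 42 members. For IL-21 minus medium the members' median was 0.00 as deposited, 0.07 after centring and -0.06 after quantile normalization, so its sign follows the scaling. Of 288 values of named members under other settings, 11 moved by more than that gap between probe sets, all after quantile normalization. The other 277 include settings that could not move them. A brightness filter does not change a member's value, and raising low values changed none of these members. The mean of probe sets can change only members with several. Of the 288 values, 3 near 0 changed sign (Adar and Oas1a between the treated cultures). Dim probe sets limit the values of 8 members, which no setting makes measurable.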
